A study of Rattus norvegicus with 12 samples.

Results

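The proteasome genes of the rat left ventricle are described here across lifelong exercise, brief activity and a standard cage. They were chosen by name: probe sets with a single gene symbol made of Psma, Psmb, Psmc, Psmd, Psme, Psmf or Psmg and a number, leaving out the interferon-induced Psmb8 and Psmb9. Each probe set reads 1 transcript through several short probes. Of 31042 gene probe sets on the array, 20826 had a single symbol and 58 matched. They stand for 44 genes, all of which had at least 1 of the 54 matching probe sets that passed the filter on dim signal. The pattern also takes Psmc3ip, a partner of meiotic recombinases, and Psme3ip1, which binds the activator Psme3. Neither is a proteasome subunit, so they are counted under the rule and described apart from the other 42 genes. Those 42 comprise 14 core particle genes, 17 regulatory particle genes and 11 genes for activators, an inhibitor and assembly chaperones. Psmb6, a catalytic core subunit, and Psme3 were matched only by probe sets that carry several symbols, and no value is given for them.

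All arrays carried left ventricle RNA of female Sprague-Dawley rats aged 16 months. EX rats had lifelong access to voluntary exercise, PA rats were moved to a large box for activity, 1 h at a time and 2 times weekly, and SED rats stayed in a standard cage. The 3 groups had 4 arrays each, numbered 1 to 4, and each array held RNA pooled from several animals. The design text gives 12 animals per group and 4 per array, which would fill 3 arrays rather than 4, so which animals stand behind which array is not settled and p-values measure the spread between pooled arrays.

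The proteasome is the protease that degrades proteins tagged with ubiquitin. Its core particle is a barrel of outer alpha rings, which gate the entrance, and inner beta rings, which hold the proteolytic sites. The regulatory particle caps the barrel: its base of ATPases unfolds the substrate and feeds it in, and its lid removes the ubiquitin chain. Interferon replaces the catalytic beta subunits by Psmb8, Psmb9 and Psmb10, giving the immunoproteasome. In heart muscle the proteasome turns over sarcomere and signalling proteins, and its genes are driven together by the transcription factor Nfe2l1.

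The tissue check and the array check both bear on the values that follow. The cardiomyocyte list had a log2 summed level of 16.10 to 16.13 in EX, 16.10 to 16.14 in PA and 16.11 to 16.18 in SED. All 9 measured markers were above 12 on every array. Other lists varied more, by the mean deviation of their markers from the 12-array means. It ran from -1.02 in EX 4 to 1.25 in EX 3 for atrium markers. For blood cell markers it ran from -1.08 in SED 1 to 1.19 in SED 3. The fibroblast range was smaller, from -0.21 in SED 1 to 0.12 in EX 3. The part of tissue composition in the values that follow was not tested. SED 1 stood apart: its mean correlation with the other arrays was 0.964, against 0.987 to 0.989 for those arrays. Its difference between the 3' and 5' Gapdh control probe sets, a sign of RNA integrity, was 1.56 log2 units, against 0.96 to 1.35 elsewhere. For the beta-actin control the gap was small, at 1.70 on SED 1 against 1.37 to 1.67 elsewhere. Most results are therefore given with and without SED 1.

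No proteasome gene differed between the groups after correction for multiple testing. With limma over all 18626 tested probe sets, 0 of 44 genes had an adjusted p under 0.05 in EX against SED, PA against SED or EX against PA, where the share of all 10244 genes was 0% in each. A moderated F test over the 3 groups gave 0 of 44 as well, beside 0%, and 4 of 44 at an unadjusted p under 0.05 (Psmb2, Psmb10, Psmd8 and Psmd9), beside 10.8%. At an unadjusted p under 0.05 there were 5 of 44 in EX against SED, beside 12.9% of all genes. There were 4 of 44 in PA against SED, beside 12.5%, and 0 of 44 in EX against PA, beside 2.53%. The groups did not overlap for 4 of 44 genes in EX against SED, beside 6.76% of all genes, for 3 of 44 in PA against SED, beside 6.89%, and for 0 of 44 in EX against PA, beside 2.73%. These shares lie near or under those of all genes, except that for EX against SED without overlap, which lies above.

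Without SED 1 the counts were also near or under the shares of all genes. In EX against SED, 0 of 44 passed the adjusted test, beside 0.00976% of all genes, 3 of 44 had an unadjusted p under 0.05, beside 12.2%, and 4 of 44 had groups without overlap, beside 10.6%. In PA against SED, 0 of 44 passed, beside 0%, 4 of 44 had an unadjusted p under 0.05, beside 10.1%, and 3 of 44 had groups without overlap, beside 9.69%. EX and PA were set against the same SED arrays, so their values are given side by side and not as 2 separate observations. In bulk tissue, fewer cells of a type and less RNA per cell cannot be told apart.

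**Figure D1:**
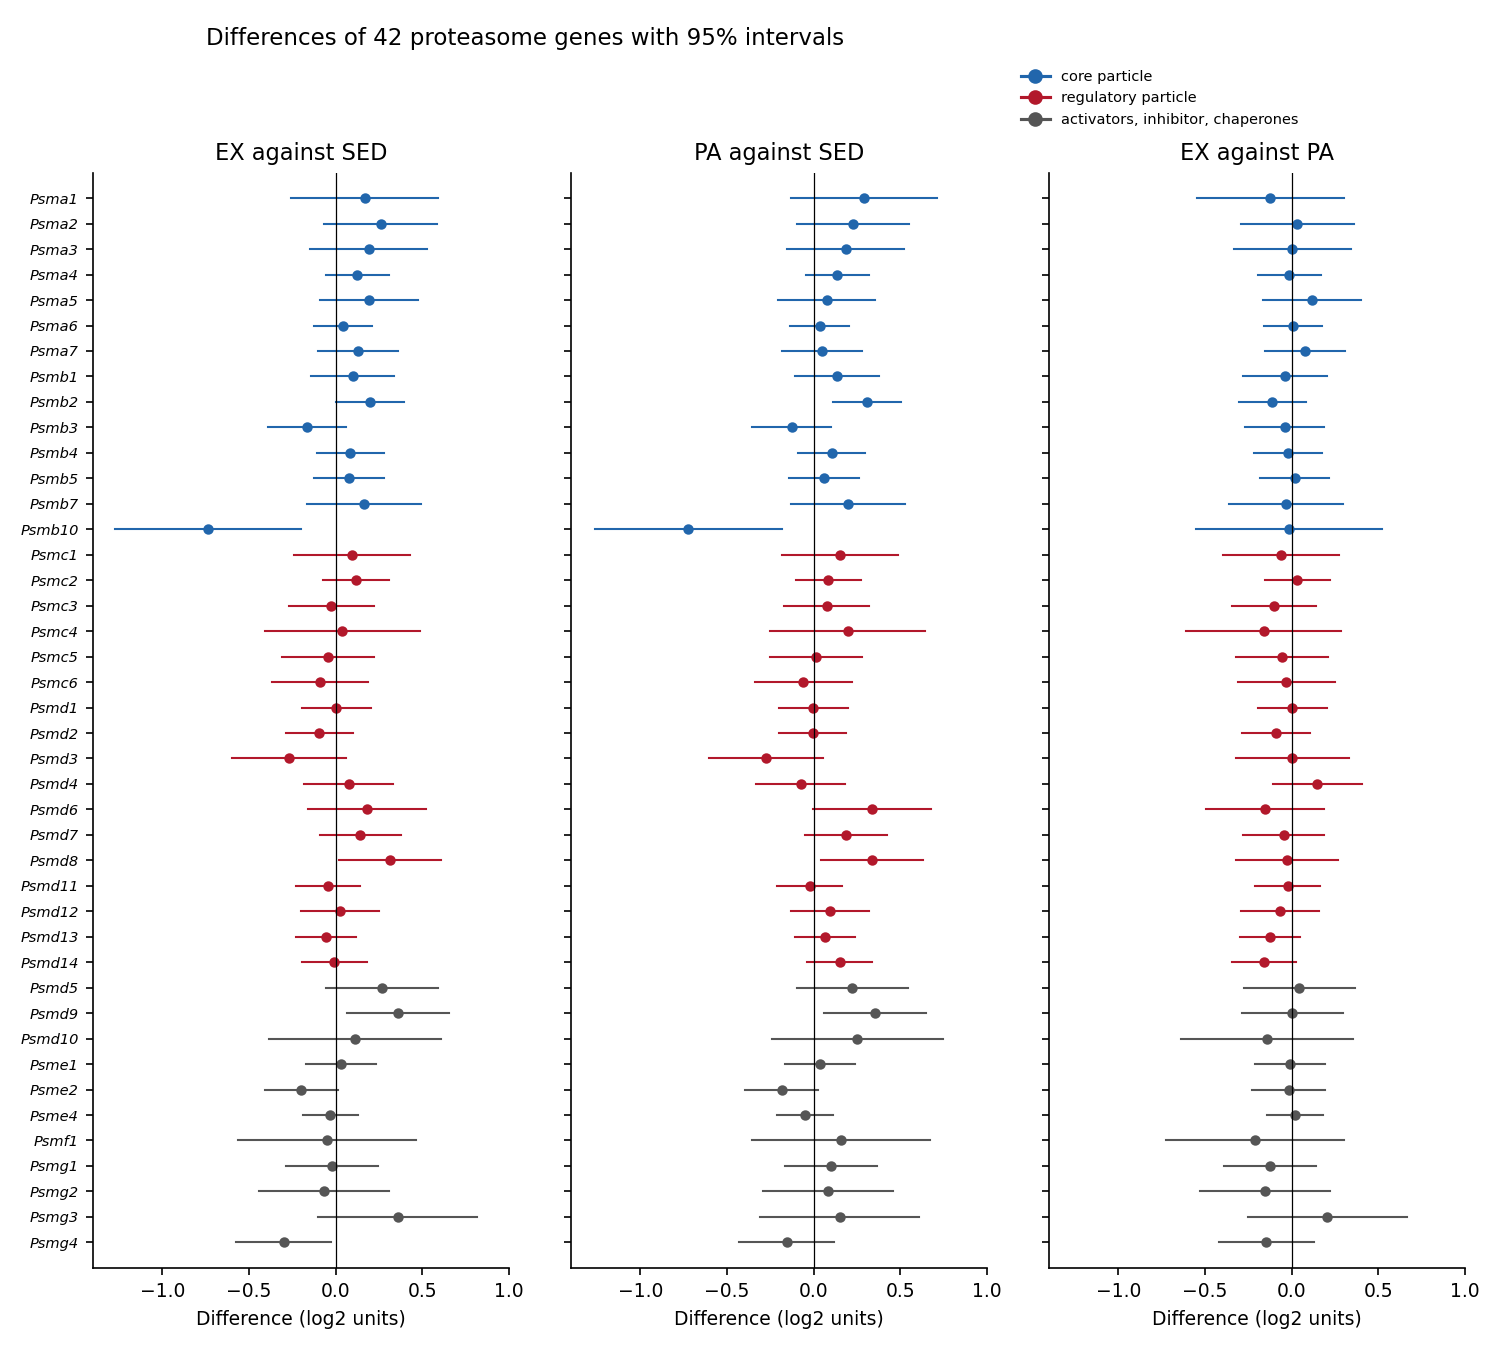
Difference in log2 units with its 95% interval for each of 42 proteasome genes (rows), in EX against SED, PA against SED and EX against PA (panels, left to right). Blue marks the core particle, red the regulatory particle and grey the activators, inhibitor and chaperones. Psmb10 lies farthest from 0 in the panels that use SED, at -0.74 in EX and -0.72 in PA, while 35 of the 42 intervals for EX against PA lie within 0.5 of 0.

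The core particle genes had mostly higher means in EX and in PA than in SED, by small amounts that shrank without SED 1. In EX against SED, 12 of 14 had a higher mean, with a median difference of 0.13 log2 units, beside 56.9% of all genes and a median of 0.03. Without SED 1 it was 10 of 14, with a median of 0.05, beside 53.5% of all genes and a median of 0.01. In PA against SED, 12 of 14 had a higher mean, with a median of 0.12, beside 59.7% of all genes and 0.05. Without SED 1 it was again 12 of 14, with a median of 0.06, beside 59.1% of all genes and a median of 0.03. Between EX and PA the median difference was -0.01, with 6 of 14 higher in EX.

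Much of the core particle's distance from SED lay in 1 array. The median deviation of the 14 genes from their 12-array means was -0.25 in SED 1 and between -0.07 and 0.12 on the other 11 arrays. SED 1 alone was the lowest of the 12 arrays for 9 of 14 core genes, 5 of 17 regulatory particle genes and 5 of 11 activator, inhibitor and chaperone genes, against 3443 of 10244 genes (33.6%) overall. Without SED 1, the difference from SED turned sign for 11 of 44 genes in EX and 6 of 44 in PA. The share of all genes that turned sign was not counted, so whether these counts are particular to proteasome genes cannot be told. Relative to the mean of the other SED arrays, SED 1 stood at a median of -0.23 for the core particle, -0.07 for the regulatory particle and -0.06 for all genes. The part of RNA quality in these values was not tested.

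**Figure D2:**
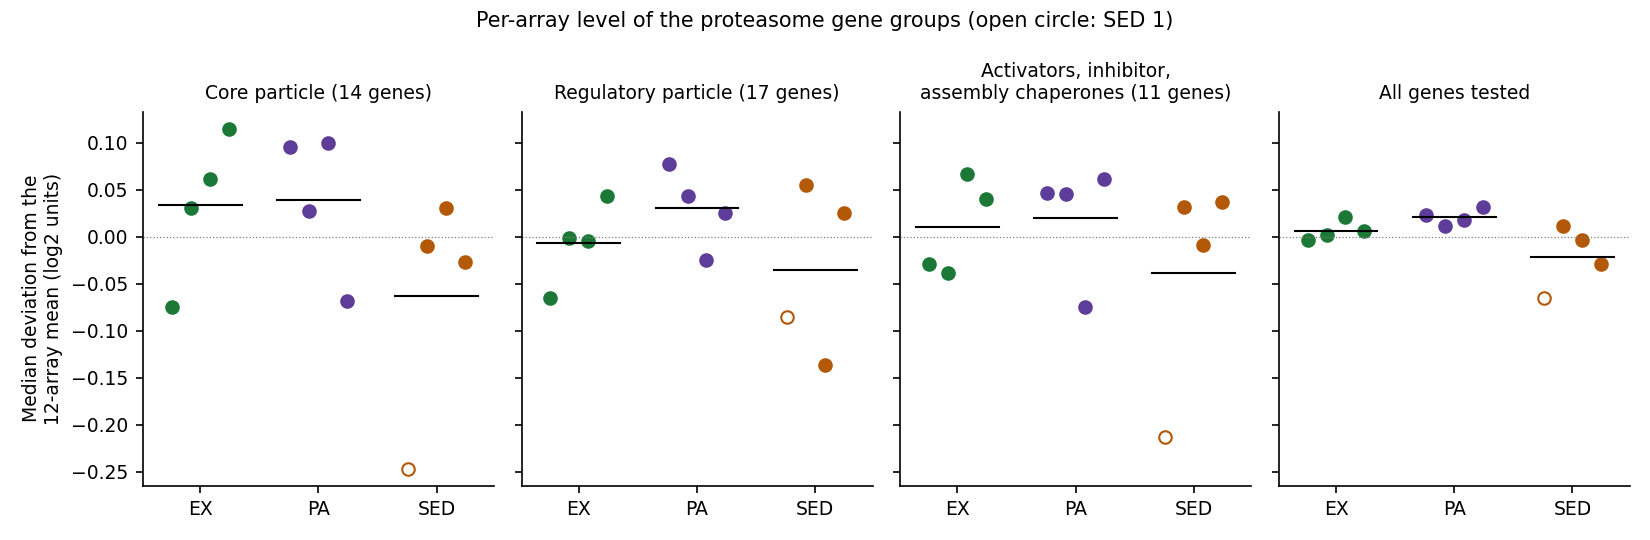
Median deviation of each gene group from its 12-array mean in log2 units (vertical axis) on each array of EX, PA and SED, with black lines at the group means of the 4 arrays. The open circle, SED 1, lies at -0.25 for the core particle and at -0.07 for all genes, and the other arrays of the core panel lie between -0.07 and 0.12.

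In the alpha ring, which forms the gate of the barrel, all 7 genes had a higher mean in EX and in PA than in SED. The medians were 0.17 in EX and 0.14 in PA. Without SED 1, 6 of 7 were higher in EX with a median of 0.08, and 7 of 7 in PA with a median of 0.07. Psma2, an alpha subunit, read 11.06, 11.24, 11.22 and 11.28 in EX, 11.21, 11.09, 11.33 and 11.04 in PA, and 10.44, 11.06, 11.18 and 11.08 in SED. The single low value is SED 1, and the remaining arrays overlap. The difference was 0.26 ± 0.15 (SE) in EX against SED and 0.23 ± 0.15 in PA against SED, and without SED 1 it was 0.09 and 0.06.

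Psma1 showed the same layout. It read 9.96, 10.35, 10.48 and 10.53 in EX, 10.62, 10.33, 10.45 and 10.41 in PA, and 9.54, 10.36, 10.27 and 10.48 in SED. Without SED 1 its difference was 0.08 in PA against SED, against 0.29 with it, and in EX against SED it was -0.04, against 0.17.

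Psma4 was the alpha subunit whose PA and SED arrays did not overlap. It read 10.53, 10.63, 10.67 and 10.78 in EX, 10.70, 10.67, 10.66 and 10.63 in PA, and 10.40, 10.60, 10.56 and 10.55 in SED. All PA arrays lay above the highest SED array, and EX overlapped SED. The PA difference was 0.14 ± 0.08 (SE; limma adjusted p = 0.439), and 0.10 without SED 1. Psma5 differed by 0.19 in EX against SED and, unlike the genes above, by 0.20 without SED 1, with overlapping arrays. Psma6 kept within 11.73 to 11.92 on all 12 arrays.

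In the beta ring, 5 of 7 measured genes had a higher mean in EX and in PA than in SED, and Psmb3 and Psmb10 a lower one. Psmb2, a structural beta subunit without proteolytic activity, read 8.20, 8.40, 8.28 and 8.29 in EX, 8.37, 8.45, 8.42 and 8.37 in PA, and 7.89, 8.18, 8.19 and 8.12 in SED. Every EX and PA array lay above every SED array, EX by a narrow margin. Psmb2 averaged 8.29 ± 0.08 in EX, 8.40 ± 0.04 in PA and 8.10 ± 0.14 in SED (SD, n = 4 each). The differences were 0.20 ± 0.09 (SE; limma adjusted p = 0.317) in EX and 0.31 ± 0.09 (limma adjusted p = 0.200) in PA, and the PA fold was 1.24. Without SED 1 they were 0.13 and 0.24, and the groups still did not overlap.

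The promoter of Psmb2 is printed because it is the core gene with the smallest p in PA against SED and carries both motifs searched for the factors that drive proteasome genes. Motifs were searched on both strands of 300 bases, 250 before and 50 after each gene's start, in RefSeq sequences of GRCr8, and 40 of the 44 genes were found there. The antioxidant response element core, TGACNNNGC, which Nfe2l1 and Nfe2l2 bind with small Maf proteins, was in 7 of 40 promoters (17.5%), beside 12.2% of all 27457 promoters. The CCAAT box, bound by the factor NF-Y, was in 20 of 40 (50%), beside 37.7%, with 9 of 13 in the core particle and 5 of 14 in the regulatory particle. A match describes the letters and is not evidence of binding. The 250 bases before the Psmb2 start at chr5:144254808-144255057 (GRCr8, plus strand) follow, with capitals marking a CCAAT box on the reverse strand at -214 and a CCAAT box at -72 that shares its last base with the TGACNNNGC match at -68.
Psmb2: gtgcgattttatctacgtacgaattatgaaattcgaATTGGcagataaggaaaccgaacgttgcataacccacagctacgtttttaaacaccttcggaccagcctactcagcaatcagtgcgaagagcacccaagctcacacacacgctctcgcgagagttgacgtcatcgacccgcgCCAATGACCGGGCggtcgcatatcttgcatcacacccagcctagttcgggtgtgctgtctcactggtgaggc

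For the constitutive catalytic subunits, the arrays of the 3 groups overlapped, with and without SED 1. Psmb5, which carries the chymotrypsin-like site, read 10.77, 11.01, 11.05 and 11.09 in EX, 11.01, 10.97, 10.95 and 10.92 in PA, and 10.76, 10.98, 10.92 and 10.95 in SED. The groups overlap throughout, with differences of 0.08 ± 0.09 (SE) in EX and 0.06 ± 0.09 in PA against SED and 95% intervals of -0.12 to 0.28 and -0.14 to 0.26, and differences of 0.03 and 0.0125 without SED 1. Psmb7, which carries the trypsin-like site, read 11.62, 11.88, 11.83 and 11.89 in EX, 11.88, 11.72, 11.96 and 11.79 in PA, and 11.13, 11.81, 11.80 and 11.82 in SED. Only SED 1 is low: the differences were 0.17 in EX and 0.20 in PA with all arrays, and -0.005 and 0.03 without SED 1. Psmb4 had the narrowest range of the beta subunits without SED 1, from 11.93 to 12.07. Psmb3 was lower in EX by 0.17 and in PA by 0.13, and SED 1 was its highest array, at 9.69 against 9.15 to 9.45 elsewhere. Without SED 1 its differences were -0.09 and -0.05.

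Psmb10, the interferon-induced subunit that replaces Psmb7, had the largest difference of any of the 44 genes and ran opposite to the 5 beta subunits with higher means. It read 6.89, 6.97, 6.69 and 6.69 in EX, 6.67, 6.85, 7.29 and 6.49 in PA, and 8.34, 7.06, 7.35 and 7.44 in SED. All EX arrays lay below all SED arrays, PA 3 overlapped SED, and SED 1 was the highest array. Psmb10 averaged 6.81 ± 0.14 in EX, 6.83 ± 0.34 in PA and 7.55 ± 0.55 in SED (SD, n = 4 each). The differences were -0.74 ± 0.25 (SE; limma adjusted p = 0.193), a fold of 0.600, in EX and -0.72 ± 0.25 (limma adjusted p = 0.229) in PA. Without SED 1 they were -0.47 (limma adjusted p = 0.262) and -0.46 (0.328), so SED 1 moved both by more than 1.5 times.

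The genes left out of the rule as interferon-induced had lower means in EX and PA too, but on other SED arrays. Psmb9, which replaces Psmb6, read 7.14, 6.94, 6.97 and 7.15 in EX, 6.91, 6.77, 7.27 and 7.03 in PA, and 7.17, 7.09, 8.34 and 8.0 in SED. Psmb8, which replaces Psmb5, read 6.99, 7.16, 7.35 and 7.59 in EX, 7.27, 7.22, 7.68 and 7.64 in PA, and 7.26, 7.26, 8.33 and 8.01 in SED. Both were high on SED 3 and SED 4, whereas Psmb10 was highest on SED 1. The differences of Psmb9 were -0.60 ± 0.24 (SE; limma adjusted p = 0.266) in EX and -0.66 ± 0.24 (limma adjusted p = 0.259) in PA, and without SED 1 they were -0.76 and -0.82. For Psmb8 the EX difference was -0.44 ± 0.24, and -0.59 without SED 1. Its PA difference was -0.26 ± 0.24, and -0.41 without SED 1. Without SED 1 and SED 3 together, the EX differences were -0.495 for Psmb9 and -0.36 for Psmb8.

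Among the activators, Psme2 had lower means in EX and PA too, and the sign of Psme1 varied with SED 1 and with the probe set. The pair forms the interferon-induced cap of the core particle. Psme2 read 9.95, 9.82, 9.84 and 10.02 in EX, 9.95, 9.96, 9.94 and 9.84 in PA, and 10.08, 9.89, 10.24 and 10.22 in SED. SED 2 overlapped both other groups, and the remaining SED arrays lay above every EX and PA array. The differences were -0.20 ± 0.10 (SE; limma adjusted p = 0.345) in EX and -0.19 ± 0.10 (limma adjusted p = 0.379) in PA, and without SED 1 they were -0.21 and -0.19. Psme1 stayed between 11.41 and 11.72, with differences of 0.03 in EX and 0.04 in PA, and of -0.03 in each without SED 1. Its second probe set gave -0.205 in EX and -0.17 in PA, and -0.18 and -0.14 without SED 1.

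The wider antigen processing list had 6 measured genes, with Psmb8 and Psmb9 among them. All 6 had a lower mean in EX and in PA than in SED, with medians of -0.31 and -0.22, and 0 of 6 passed the adjusted test. Irf1, a transcription factor induced by interferon, read 6.68, 6.77, 6.36 and 6.34 in EX, 6.40, 6.75, 6.69 and 6.66 in PA, and 7.25, 6.77, 7.34 and 7.04 in SED. PA lay wholly below SED, and EX reached the lowest SED array. The differences were -0.56 ± 0.15 (SE; limma adjusted p = 0.139) in EX and -0.48 ± 0.15 (limma adjusted p = 0.208) in PA. Without SED 1 they were -0.51 and -0.425. B2m, the light chain of class I antigens, differed by -0.055 in EX and -0.035 in PA, and by -0.09 and -0.07 without SED 1. Without SED 1 the list's median was -0.39 in EX, with 5 of 6 lower, and -0.31 in PA, with 6 of 6 lower. Without SED 1 and SED 3 together it was -0.27 in EX and -0.15 in PA, with 5 of 6 lower in each.

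Leukocytes express these genes strongly, so their markers are given beside them. The leukocyte list had a log2 summed level of 12.35 to 12.55 in EX, 12.48 to 12.71 in PA and 12.39 to 12.89 in SED. Its mean was lower for 11 of 12 measured markers in EX against SED and 7 of 12 in PA against SED. Without SED 1 it was 12 of 12 in EX and 10 of 12 in PA, with the median difference at -0.38 and -0.27, against -0.21 and -0.14 with all arrays. Itgam and Cd79b were under the filter. No measured marker was at 0. SED 3 was the highest array of the list, at 12.89, while SED 1, where Psmb10 was highest, had 12.39. The markers split on SED 1. Cd74 at 11.60, Ptprc at 6.78 and Cd68 at 5.38 had their lowest value there, among others. Cd3e at 5.55 had its highest there, and Lyz2 read 10.07, second to 10.25 on SED 3. The part of leukocyte content in the values of Psmb8, Psmb9, Psmb10 and Psme2 was not tested.

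**Figure D3:**
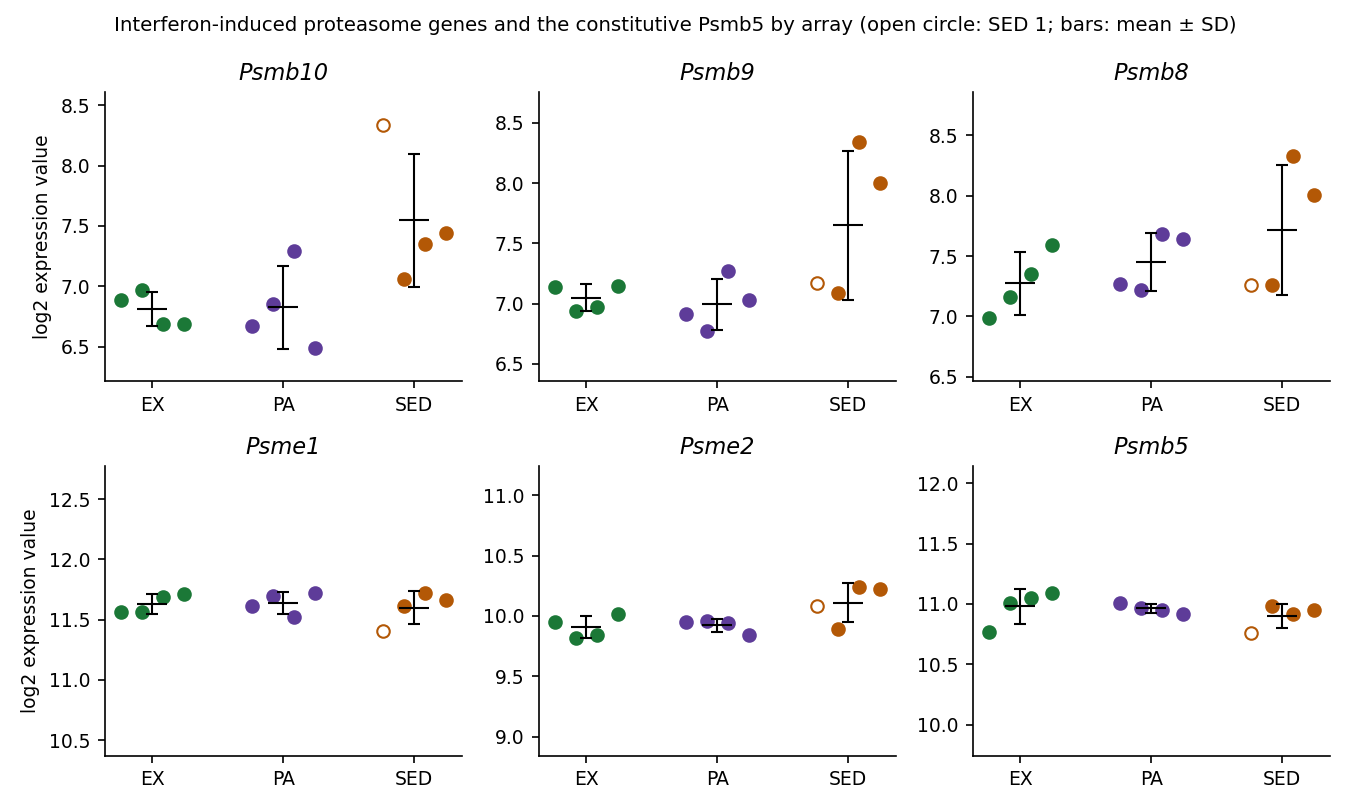
Log2 expression values by array for Psmb10, Psmb9, Psmb8, Psme1, Psme2 and, for contrast, the constitutive Psmb5, in EX, PA and SED (bars: mean ± SD of 4 arrays, open circle: SED 1, vertical axes of equal length). SED 1 is the highest point for Psmb10 at 8.34, SED 3 is the highest for Psmb9 at 8.34 and Psmb8 at 8.33, and Psmb5 overlaps in all groups.

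The promoters of Psmb10 and Psme2 are shown beside these values for their interferon response motif, GAAA repeated after any 2 bases, a search added after the values were seen. It was in 6 of 40 promoters of the rule's genes (15%), beside 3.77% of all 27457. Psmb10 held 2 matches, at -73 and -17, Psme2 held 1 at -53, and Psma4, Psmb3, Psmd7 and Psmg4 held 1 each, while Psmb8 held 1 at -4 and Psmb9 held 0 in this window. Of these genes, Psma4 and Psmd7 had higher means in EX and PA than in SED, and the other 5 with a match had lower ones. Of all genes, 56.9% had a higher mean in EX and 59.7% in PA. The motif was chosen with these values known, so the split is no test of it. The 250 bases before each start follow in GRCr8, both from the minus strand, with the motif in capitals: Psmb10 from chr19:50743293-50743542 and Psme2 from chr15:33052752-33053001.
Psmb10: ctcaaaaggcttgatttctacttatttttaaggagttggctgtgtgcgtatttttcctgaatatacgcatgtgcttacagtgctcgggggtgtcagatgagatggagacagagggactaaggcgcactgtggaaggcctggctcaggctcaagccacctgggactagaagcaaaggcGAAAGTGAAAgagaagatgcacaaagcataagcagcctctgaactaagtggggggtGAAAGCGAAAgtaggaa
Psme2: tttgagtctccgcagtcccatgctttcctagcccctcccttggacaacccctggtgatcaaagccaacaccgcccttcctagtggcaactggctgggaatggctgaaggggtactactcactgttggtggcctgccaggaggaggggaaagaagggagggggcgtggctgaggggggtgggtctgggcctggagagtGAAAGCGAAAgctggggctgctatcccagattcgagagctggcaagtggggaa

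The regulatory particle showed no common direction in EX. In EX against SED, 9 of 17 genes had a higher mean and the median difference was 0.0025, beside 56.9% of all genes and 0.03. Without SED 1 it was 7 of 17 and -0.02, beside 53.5% and 0.01. In PA against SED, 11 of 17 were higher with a median of 0.08, beside 59.7% of all genes and 0.05. Without SED 1 it was 13 of 17 and 0.04, beside 59.1% and 0.03. By parts, the medians in EX against SED were 0.01 for the 6 base ATPases, 0.0025 for the other 3 base subunits and 0.01 for the 8 lid subunits. The same medians in PA against SED were 0.08, -0.005 and 0.12. Without SED 1 they were -0.03, -0.045 and 0.0075 in EX, and 0.01, -0.05 and 0.10 in PA.

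Psmd8, a lid subunit, had the smallest p of the regulatory particle. It read 7.82, 7.89, 7.91 and 7.90 in EX, 7.85, 7.88, 8.01 and 7.88 in PA, and 7.11, 7.70, 7.63 and 7.83 in SED. PA lay wholly above SED, EX overlapped it at its lowest array, and SED 1 was far below the rest. The differences were 0.31 ± 0.13 (SE; limma adjusted p = 0.291) in EX and 0.34 ± 0.13 (limma adjusted p = 0.275) in PA, and without SED 1 they were 0.16 and 0.19.

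Other lid subunits pointed both ways. Psmd6 read 9.84, 10.05, 10.01 and 10.04 in EX, 10.26, 10.02, 10.29 and 9.99 in PA, and 9.31, 9.98, 9.82 and 10.11 in SED, a difference of 0.18 in EX and 0.34 in PA, and of 0.02 and 0.17 without SED 1. Psmd3 ran the other way, with 7.89, 7.84, 7.88 and 7.81 in EX, 7.56, 8.12, 8.0 and 7.72 in PA, and 8.52, 7.89, 8.07 and 8.02 in SED. SED 1 is its highest array, and the differences of -0.27 in EX and -0.28 in PA were -0.14 each without it. Psmd7, the partner of the lid's deubiquitinase, differed by 0.14 in EX and 0.19 in PA, and by 0.10 and 0.15 without SED 1. A second, dimmer Psmd7 probe set gave 0.07 in EX and 0.035 in PA, and 0.03 and -0.0008 without SED 1.

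Psmd14, the deubiquitinase of the lid, read 9.89, 9.90, 9.77 and 9.88 in EX, 9.87, 10.17, 10.05 and 9.98 in PA, and 9.89, 9.82, 9.92 and 9.84 in SED. PA was higher than SED by 0.15 ± 0.09 (SE; limma adjusted p = 0.414) with overlap at PA 1, and EX differed from SED by -0.01. Its other probe sets gave 0.19 and 0.07 in EX and 0.38 and 0.19 in PA, and without SED 1 they gave 0.08 and -0.065 in EX and 0.27 and 0.055 in PA, so the values of Psmd14 depend on the probe set and on SED 1. Psmd4, a ubiquitin receptor of the base, differed by 0.08 in EX and -0.08 in PA, each with overlap.

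Among the base ATPases the differences were small. Psmc2 differed by 0.12 in EX and 0.09 in PA against SED, and Psmc1 by 0.09 and 0.15, which became -0.04 and 0.02 without SED 1. Psmc4 read 8.89 in SED 1 against 9.33 to 9.90 on the other SED arrays. Psmc6 shows how far probe sets of 1 gene can part on that array: its brightest probe set had SED 1 as its highest array at 10.77, and the next brightest had it as its lowest at 9.32. The base subunits Psmd1 and Psmd2, scaffolds that bind substrates and shuttle proteins, differed by 0.0025 and -0.095 in EX and by -0.0025 and -0.005 in PA. Without SED 1 these were -0.045 and -0.05 in EX, and -0.05 and 0.04 in PA.

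**Figure D4:**
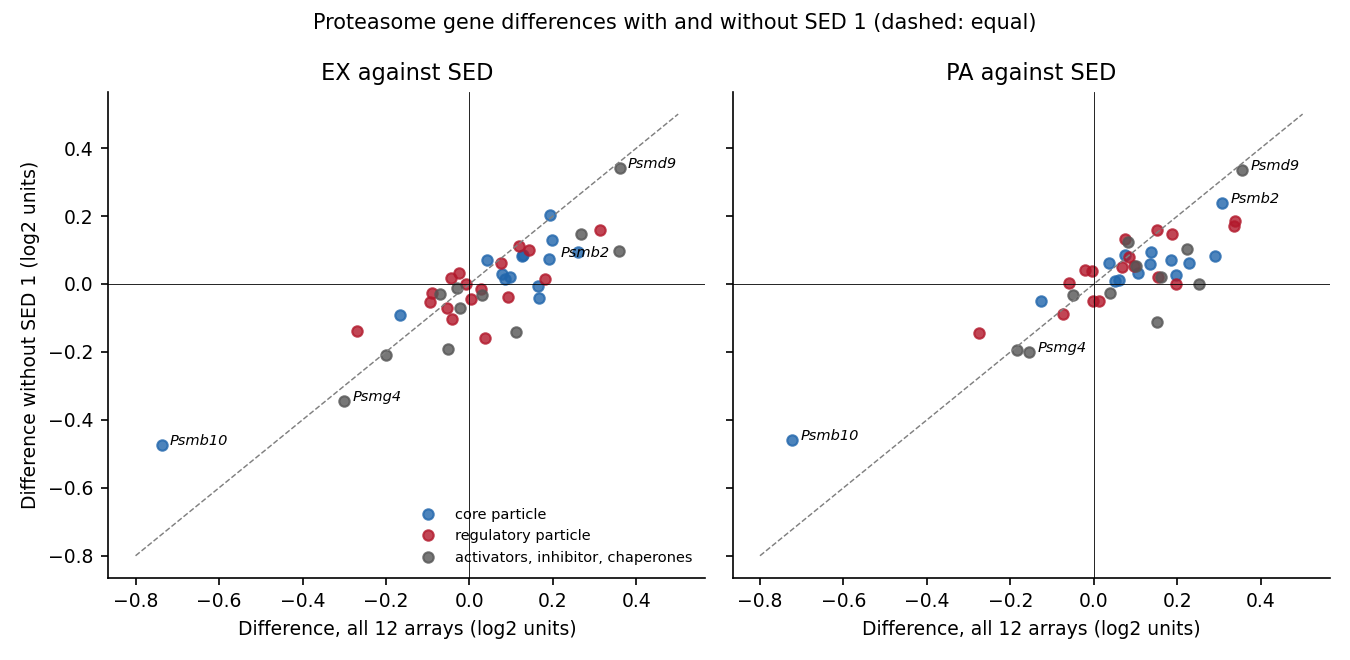
Difference from SED in log2 units of each proteasome gene with all 12 arrays (horizontal axis) and without SED 1 (vertical axis), for EX and PA (panels), with the dashed line where both are equal. Psmb10 moved to -0.47 in EX and -0.46 in PA without SED 1, while Psmd9 stayed near the dashed line at 0.34 in each.

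The 3 chaperones that assemble the regulatory particle's base, Psmd5, Psmd9 and Psmd10, had higher means in EX and PA than in SED, with medians of 0.27 and 0.25, and SED 1 was the lowest array for Psmd5 and Psmd10 and level with SED 3 as the lowest for Psmd9. Without SED 1 the medians were 0.15 and 0.10, 2 of 3 had a higher mean in EX and in PA, and Psmd10 stood at -0.14 and 0.00. Psmd9 read 7.20, 7.30, 7.39 and 7.62 in EX, 7.23, 7.55, 7.09 and 7.62 in PA, and 6.96, 7.17, 6.96 and 6.98 in SED. EX lay wholly above SED, PA overlapped it at SED 2, and the SED arrays other than SED 2 lay within 0.02 of each other. The differences were 0.36 ± 0.13 (SE; limma adjusted p = 0.231), a fold of 1.28, in EX and 0.36 ± 0.13 (limma adjusted p = 0.262) in PA. They were 0.34 in each without SED 1. A second, dimmer Psmd9 probe set differed by 0.04 in EX and 0.215 in PA, and by 0.115 and 0.29 without SED 1.

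The core's own assembly chaperones, Psmg1 to Psmg4, did not share a direction. Psmg4 read 8.59, 8.17, 8.42 and 8.55 in EX, 8.85, 8.53, 8.43 and 8.50 in PA, and 8.60, 8.86, 8.64 and 8.83 in SED. EX lay wholly below SED by a narrow margin, and PA overlapped both. The difference was -0.30 ± 0.13 (SE; limma adjusted p = 0.274) in EX and -0.16 ± 0.13 in PA, and -0.34 and -0.20 without SED 1. Psmg3 read 6.36 in SED 1 against 7.34 to 7.5 on the other SED arrays, so its difference of 0.36 in EX was 0.10 without SED 1, and in PA 0.15 became -0.11.

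The remaining activator had a narrow range in its brightest probe set, and the inhibitor had a wide one. Psme4, a large activator of the core particle, ranged from 11.60 to 11.77 over all arrays, with differences of -0.03 in EX and -0.05 in PA, and of -0.01 and -0.03 without SED 1. A dimmer Psme4 probe set gave 0.30 ± 0.12 (SE; limma adjusted p = 0.240) in EX, with EX wholly above SED, and 0.26 in PA, with overlap. Without SED 1 these were 0.27 and 0.23. Another Psme4 probe set gave 0.15 in EX and 0.04 in PA, and 0.09 and -0.02 without SED 1. Psmf1, an inhibitor of the core particle, spread widely within groups, with 7.20, 7.93, 8.03 and 7.89 in EX, 8.22, 7.95, 7.61 and 8.12 in PA, and 7.40, 8.36, 7.55 and 7.95 in SED. The difference of Psmf1 was -0.05 in EX, with a 95% interval of -0.57 to 0.46, and 0.16 in PA, and without SED 1 it was -0.19 and 0.02. Of the names that are not subunits, Psmc3ip differed by 0.28 in EX and 0.30 in PA, and Psme3ip1 by -0.01 and 0.04. Without SED 1 these were 0.16 and 0.18 for Psmc3ip, and 0.065 and 0.115 for Psme3ip1.

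EX and PA were close to each other. The largest differences among the 42 genes were -0.21 for Psmf1 and 0.21 for Psmg3, and 14 of 42 had a higher mean in EX, beside 44.1% of all genes. The median was -0.06 for the regulatory particle, with 4 of 17 higher in EX, and -0.02 for all genes. Psmd14 was lower in EX by 0.16 ± 0.09 (SE; limma adjusted p = 1). Without SED 1, which enters this comparison only through the shared spread, 1 of the 42 genes, Psmg3, had an unadjusted p under 0.05, beside 4.64% of all genes.

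The size of difference that remains possible can be read from the intervals. In EX against SED, 29 of 42 genes had a 95% interval within 0.5 log2 units of 0, beside 52.8% of all genes, and 36 of 42 without SED 1, beside 62.6%. In PA against SED it was 27 of 42, beside 52.3%, and 38 without SED 1, beside 65.3%. For EX against PA it was 35 of 42, beside 64.7%. An interval within that size bounds the difference and does not show that there was none.

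Other genes of the pathway were counted from fixed lists, and 0 of 33 passed the adjusted limma test in any comparison. At an unadjusted p under 0.05 there were 5 of 33 in EX against SED, beside 12.9% of all genes, and 5 of 33 in PA against SED, beside 12.5%. Without SED 1 there were 5 of 33, beside 12.2%, and 6 of 33, beside 10.1%. Of the 10 ubiquitin, E1 and shuttle genes, 7 had a higher mean in EX and 7 in PA, beside 56.9% and 59.7% of all genes. Without SED 1 it was 6 and 8, beside 53.5% and 59.1%. Ubqln4, a shuttle protein, read 6.05, 5.97, 5.93 and 5.58 in EX, 6.09, 5.68, 5.82 and 5.99 in PA, and 5.26, 5.68, 5.27 and 5.45 in SED, a difference of 0.47 ± 0.14 (SE; limma adjusted p = 0.161) in EX and 0.48 ± 0.14 (limma adjusted p = 0.198) in PA. SED 2 reached into both other groups, and the differences were 0.42 and 0.43 without SED 1.

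Ddi2, the protease that activates Nfe2l1, read 6.48, 6.69, 7.14 and 6.93 in EX, 6.98, 6.95, 6.77 and 7.13 in PA, and 5.23, 6.57, 6.74 and 6.25 in SED. SED 1 was the lowest array, and the differences of 0.61 in EX and 0.76 in PA were 0.29 and 0.44 without it. Nfe2l1 itself read 11.45 to 11.54 in EX, 11.47 to 11.54 in PA and 11.37 to 11.64 in SED. Of the 9 transcription factors and regulators, 7 had a higher mean in EX and 6 in PA, and without SED 1 it was 5 and 6. Mafg, a small Maf partner, read 6.58, 6.34, 6.51 and 6.51 in EX, 6.72, 6.74, 6.31 and 6.57 in PA, and 6.97, 6.65, 6.93 and 7.01 in SED, with EX wholly below SED. Its difference was -0.41 ± 0.12 (SE; limma adjusted p = 0.161) in EX and -0.31 ± 0.12 (limma adjusted p = 0.271) in PA, and -0.38 and -0.28 without SED 1. Of the 8 other proteasome-bound proteins, 5 were higher in EX and 6 in PA, and without SED 1 it was 4 and 5. Adrm1, a ubiquitin receptor, differed by -0.24 in EX and -0.09 in PA, and by -0.23 and -0.09 without SED 1.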

How the data were processed

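RNA from left ventricle was labelled from 6 µg per array, per the labels' protocols. The table deposited by the authors holds log2 values, rounded to 2 decimals, of 31099 rows on 12 arrays. MAS5 and RMA appear in the submitters' processing notes with no role, so the background correction and exact scale are not given in the sources used here. The values were used as deposited, after 57 control rows were left out. Symbols came from the platform annotation: 20826 rows had 1 symbol, 436 several and 9780 none, and of the symbols 20758 matched a gene identifier and 68 did not.

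Probe sets in the upper 60% by mean over all arrays were tested (18626, log2 of at least 4.94), and a gene was its brightest tested probe set (10244 genes). Groups were compared with limma 3.58.1 in R 4.3.3, as 3 group means over 12 arrays (9 residual degrees of freedom), two-sided, with Benjamini-Hochberg adjustment over all tested probe sets and a threshold of 0.05. Differences, SEs and 95% intervals are on the log2 scale. A list's summed level is the log2 of its genes' summed linear values. The named genes were those with the 6 smallest p-values in each particle and 3 among the other members, up to 3 per other list, and fixed catalytic, interferon-induced, receptor, activator and inhibitor genes; others named here, and the interferon response motif, were chosen after their values were seen. The members and lists were chosen with earlier results of these data known. Sequences are from RefSeq, GRCr8. Arrays carry no read depth, and their number limits the precision.

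Replicate numbers are shared across groups. Same-numbered arrays deviated from their group means with correlations of -0.21 to 0.13, 4 of 12 over 0.1, so the numbers were not taken to pair arrays. The alternatives were quantile normalization, centring, other filters, an offset of 32, trend and robust variance, array weights, the compared groups only, a replicate block, averaged probe sets, a threshold of 0.1, and leaving arrays out. The fit was tested on simulated data. Figures used matplotlib 3.10.9 in Python 3.11.15.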

Additional observations from a re-analysis of the deposited data

Results flagged for a closer look

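Among 99 sets of 4 arrays, from 31 named genes and 2 list medians in each group, 13 had an array far from the other 3 of its group. Under the rule used, chance gives about 1 in 20 for independent, normally distributed values. Many named genes were chosen by p-value and all share the same arrays, so 13 of 99 cannot be read against that rate. SED 1 was the odd array in 3 of the 13 sets, low in each: Psma2 at 10.44 against 11.06 to 11.18, Psmb7 at 11.13 against 11.80 to 11.82, and Psmg3 at 6.36 against 7.34 to 7.5. EX 1 was low for Psmf1 at 7.20 against 7.89 to 8.03, for Psmc1 at 9.93 against 10.33 to 10.41, and for Psma7 at 9.95 against 10.27 to 10.33. PA 2 was high for Psmd7 at 9.90 against 9.51 to 9.53 and for Psmc3 at 9.65 against 9.34 to 9.36. The remaining arrays lay closer: Psmb3 read 9.15 in EX 2 against 9.32 to 9.35, and Psmd14 9.77 in EX 3 against 9.88 to 9.90. Psme2 read 9.84 in PA 4 against 9.94 to 9.96. Psmd9 read 7.17 in SED 2 against 6.96 to 6.98, and Psmd4 8.95 in SED 3 against 8.73 to 8.76.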

How the results depend on the processing

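No proteasome gene passed the adjusted limma threshold of 0.05 under any setting run, nor the looser threshold of 0.1. The count of all probe sets past 0.05 was 0 in each comparison, and was 8 in EX against SED, 1 in PA against SED and 1 in EX against PA with array weights, 2 in EX against SED without SED 1 and SED 3 together, and 0 to 2 in EX against SED leaving out 1 array. With the replicate block the count of proteasome genes stayed 0 in each comparison, and the lowest adjusted limma p was 0.236 in EX against SED (Psmd9) and 0.234 in PA against SED (Psmb2). Own-numbered arrays correlated best in 4 of 12 cases.

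The core median kept its sign against SED, at 0.05 to 0.16 in EX and 0.059 to 0.155 in PA leaving out 1 array. The regulatory median ranged from -0.019 to 0.05 in EX leaving out 1 array. Without SED 1 and SED 3 together it was -0.07 in EX and -0.01 in PA. Quantile normalization turned Psmd4 to -0.0092 in EX against SED and Psme1 to 0.0067 in EX against PA. Array weights turned Psmf1 to -0.019 in PA against SED and Psme1 to 0.011 in EX against PA. Averaging probe sets turned Psmd14 to 0.083, Psme1 to -0.0875 and Psme4 to 0.142 in EX against SED, and Psme1 to -0.065 and Psme4 to 0.084 in PA against SED. Without SED 1 and SED 3 together, EX against SED turned to -0.06 for Psmd6, -0.01 for Psmb7, 0.03 for Psmd14 and -0.005 for Psme1, and PA against SED to -0.01 for Psmc1, -0.0025 for Psmb5 and -0.18 for Psmf1. The cause was not tested.

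Among the genes that the naming rule took in each comparison, these crossed 0 leaving out 1 array. In EX against SED the ranges were -0.005 to 0.227 for Psmb7, -0.023 to 0.0225 for Psmd14, -0.0033 to 0.147 for Psmd4, -0.033 to 0.07 for Psme1 and -0.191 to 0.135 for Psmf1. In PA against SED, Psme1 ranged from -0.026 to 0.0775. In EX against PA they were -0.189 to 0.00083 for Psma1, -0.1 to 0.019 for Psmb1, -0.087 to 0.0067 for Psmb3, -0.019 to 0.0875 for Psmb5, -0.072 to 0.029 for Psmb7, -0.127 to 0.14 for Psmb10, -0.047 to 0.02 for Psme1, -0.0525 to 0.014 for Psme2 and -0.0017 to 0.048 for Psme4.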
